A study of Mus musculus with 91 samples.

Results

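The Fc gamma receptors and the chain they share were followed across all 8 tissue-by-group sets of a mouse brain array study. Every probe whose annotated gene symbol was Fcer1g, Fcgr1, Fcgr2b, Fcgr3 or Fcgr4 was taken, which gave 7 probes for 5 of the 12115 annotated genes. The study measured frontal cortex and hippocampus of the left hemisphere on 91 Illumina bead arrays from 47 mice, 44 of them in both tissues. APP/PS1 mice carry human transgenes that lead to amyloid deposits in the brain, as in Alzheimer's disease. Their transgenes are driven by a neuronal Thy1 promoter, and the signal of the Thy1 probe served as a check of the genotype labels. One APP/PS1 group received an antisense oligonucleotide (ASO) against CD33, a sialic acid receptor of myeloid cells with inhibitory motifs (CD33 ASO; 11 cortical and 12 hippocampal arrays). A second APP/PS1 group received an ASO without a target (CON ASO; 13 and 13), and the third received the vehicle (PBS; 9 and 9). Wild-type (WT) littermates received PBS (12 and 12). All 4 groups carried an osmotic pump and a cannula into the right lateral ventricle, and were single housed after surgery. Infusion lasted 14 days from 18 weeks of age, at 50 µg of ASO a day where one was given, and tissue was taken at 22 weeks. Replicates are separate mice.

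Fc gamma receptors bind the constant part of immunoglobulin G. Fcgr1, Fcgr3 and Fcgr4 are activating receptors whose signal runs through the common gamma chain encoded by Fcer1g, which carries an immunoreceptor tyrosine-based activation motif (ITAM) and recruits the kinase Syk. Fcgr2b is the inhibitory receptor, with an inhibitory motif in its own tail that recruits the phosphatase encoded by Inpp5d. In brain these genes are expressed mainly by microglia and by macrophages of the brain's borders, where the receptors take part in the uptake of antibody-coated material, including amyloid. Fcer1g also serves other receptors of myeloid cells.

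In the RefSeq annotation of GRCm38.p6, 4 of the 5 genes lie near each other on chromosome 1, with Fcgr2b at chr1:170960558-170976071, Fcgr4 at chr1:171018926-171029761, Fcgr3 at chr1:171051169-171065915 and Fcer1g at chr1:171229572-171234349, and Fcgr1 lies at chr3:96282909-96293969. The 250 bases before the start of 3 activating receptors and of the inhibitory one are shown because the genes rose together in APP/PS1 mice while Fcgr4 varied most within the CD33 ASO group. Capitals mark the searched motifs, which were looked for on both strands. They were GAGGAA (a core bound by the myeloid factor PU.1, the product of Spi1) and GAAA followed by GAAA after 2 bases of any kind (an interferon-response form). The first appears as TTCCTC when it lies on the opposite strand. All 4 sequences are RefSeq promoter windows of GRCm38.p6, read 5′ to 3′ along the strand of the gene.
Fcgr1, chr3:96293970-96294219, minus strand: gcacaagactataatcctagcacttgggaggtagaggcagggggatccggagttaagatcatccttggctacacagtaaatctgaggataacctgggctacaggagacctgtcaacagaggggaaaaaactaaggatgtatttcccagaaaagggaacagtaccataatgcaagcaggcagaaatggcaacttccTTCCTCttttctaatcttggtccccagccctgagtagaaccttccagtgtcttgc
Fcgr3, chr1:171059404-171059653, minus strand: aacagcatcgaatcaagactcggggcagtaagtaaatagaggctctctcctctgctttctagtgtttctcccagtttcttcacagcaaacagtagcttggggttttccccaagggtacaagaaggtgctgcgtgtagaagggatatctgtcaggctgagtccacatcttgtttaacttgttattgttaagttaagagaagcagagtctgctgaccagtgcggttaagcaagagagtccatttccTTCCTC
Fcgr4, chr1:171018676-171018925, plus strand: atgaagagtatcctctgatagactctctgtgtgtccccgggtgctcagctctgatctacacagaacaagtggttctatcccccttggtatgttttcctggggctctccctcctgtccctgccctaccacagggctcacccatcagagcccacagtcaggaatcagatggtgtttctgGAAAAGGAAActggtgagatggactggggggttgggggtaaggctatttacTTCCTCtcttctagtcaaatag
Fcgr2b, chr1:170976072-170976321, minus strand: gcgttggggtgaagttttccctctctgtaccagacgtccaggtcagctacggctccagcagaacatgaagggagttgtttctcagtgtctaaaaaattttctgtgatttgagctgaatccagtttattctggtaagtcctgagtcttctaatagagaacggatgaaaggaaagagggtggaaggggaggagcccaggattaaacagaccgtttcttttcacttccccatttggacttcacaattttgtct
GAGGAA, on the opposite strand in each case, lay 50 to 55 bases before the start of Fcgr1, 1 to 6 bases before that of Fcgr3 and 17 to 22 bases before that of Fcgr4. These letters were not in the windows of Fcer1g and Fcgr2b, and 23.3% of 32851 promoter windows of the same length hold them. The pair of GAAA lay 64 to 73 bases before the Fcgr4 start (2.98% of windows). The motifs found do not overlap each other. RefSeq has 2 windows for Fcgr3, and the start of the one shown lies inside the annotated span of the gene. A match describes letters only, and a window without one says only that they are not in it.

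Between 12555 and 13905 of the 25697 probes were detected on each array (detection p under 0.05), and each of 6 chips and 4 collection days per tissue held all 4 groups. Signals are log2 values after background correction and quantile normalization within a tissue, so they are compared between groups for the same probe and never between probes. Cd33, the targeted gene, averaged 6.50 ± 0.38 in CD33 ASO cortex (SD, n = 10) and 7.08 ± 0.26 in CON ASO cortex (n = 13). In hippocampus it averaged 5.63 ± 0.40 in CD33 ASO (n = 11) and 6.52 ± 0.18 in CON ASO mice (n = 13). The mouse labelled CD33 ASO replicate 3 in both tissues is left out of these averages. Its Thy1 signal was 14.10 in cortex and 14.02 in hippocampus, inside the WT PBS ranges of 14.08 to 14.24 and 13.96 to 14.18, whereas the rest of its group lay between 14.77 and 14.93 and between 14.74 and 14.92. Its genotype label is therefore in doubt, and results that rest on it are given with and without it. In cortex it was the lowest array of its group for all 5 members, with Fcer1g at 10.35, Fcgr1 at 6.31, Fcgr3 at 8.52, Fcgr4 at 6.55 and Fcgr2b at 6.92. Of these, Fcer1g and Fcgr2b lay above every WT PBS array of cortex (at most 10.21 and 6.81). The others lay inside the WT PBS ranges. In hippocampus its Fcer1g (10.41), Fcgr3 (8.30), Fcgr4 (7.38) and Fcgr2b (7.01) signals lay above every WT PBS array. Its Fcgr1 signal there (6.09) lay inside the WT PBS range. Of 14 microglial markers on the array, all were detected somewhere in cortex and 13 in hippocampus, where Itgam was not. Markers of hippocampal fields summed to 8265 to 12709 on hippocampal arrays (6 genes tested) and 3472 to 5613 on cortical arrays (5 genes). Those of cortical layers summed to 1869 to 2583 (5 genes) and 2633 to 3766 (6 genes). The sums thus run over unlike sets of genes, and each tissue was normalized on its own. Striatal markers, 5 tested in each tissue, summed to 11388 to 21656 on cortical arrays and 2144 to 3810 on hippocampal arrays. Whether the cortical pieces held striatum was not tested.

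2 arrays stood apart in the members. CD33 ASO cortex replicate 11, a mouse with no hippocampal array, had the highest signal of its group for all 5 members. Its Fcgr4 signal was 11.97, where the other 10 arrays reached at most 8.89. On the same array Lcn2, an acute-phase gene of neutrophils and reactive astrocytes, stood at 11.74 (4.87 to 6.76 on the others), and the interferon-induced GTPase gene Igtp at 13.24 (at most 8.83 on the others). Its median over the microglial markers was 9.19, inside the 8.23 to 9.71 of the other arrays. C1qa, the 1 of these markers read by itself, was highest on this array at 11.94 (9.95 to 11.43 on the others). APP/PS1 PBS hippocampus replicate 6 likewise had the highest signal of its group for all 5 members. Its Fcgr4 signal was 8.22 (at most 6.38 on the other 8 arrays), its Lcn2 signal 7.25 (4.50 to 5.04) and its Igtp signal 8.90 (at most 8.03). Its microglial median was 9.14, above the 8.41 to 9.01 of the others. The part these markers play in the members' signals was not tested.

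**Figure D1:**
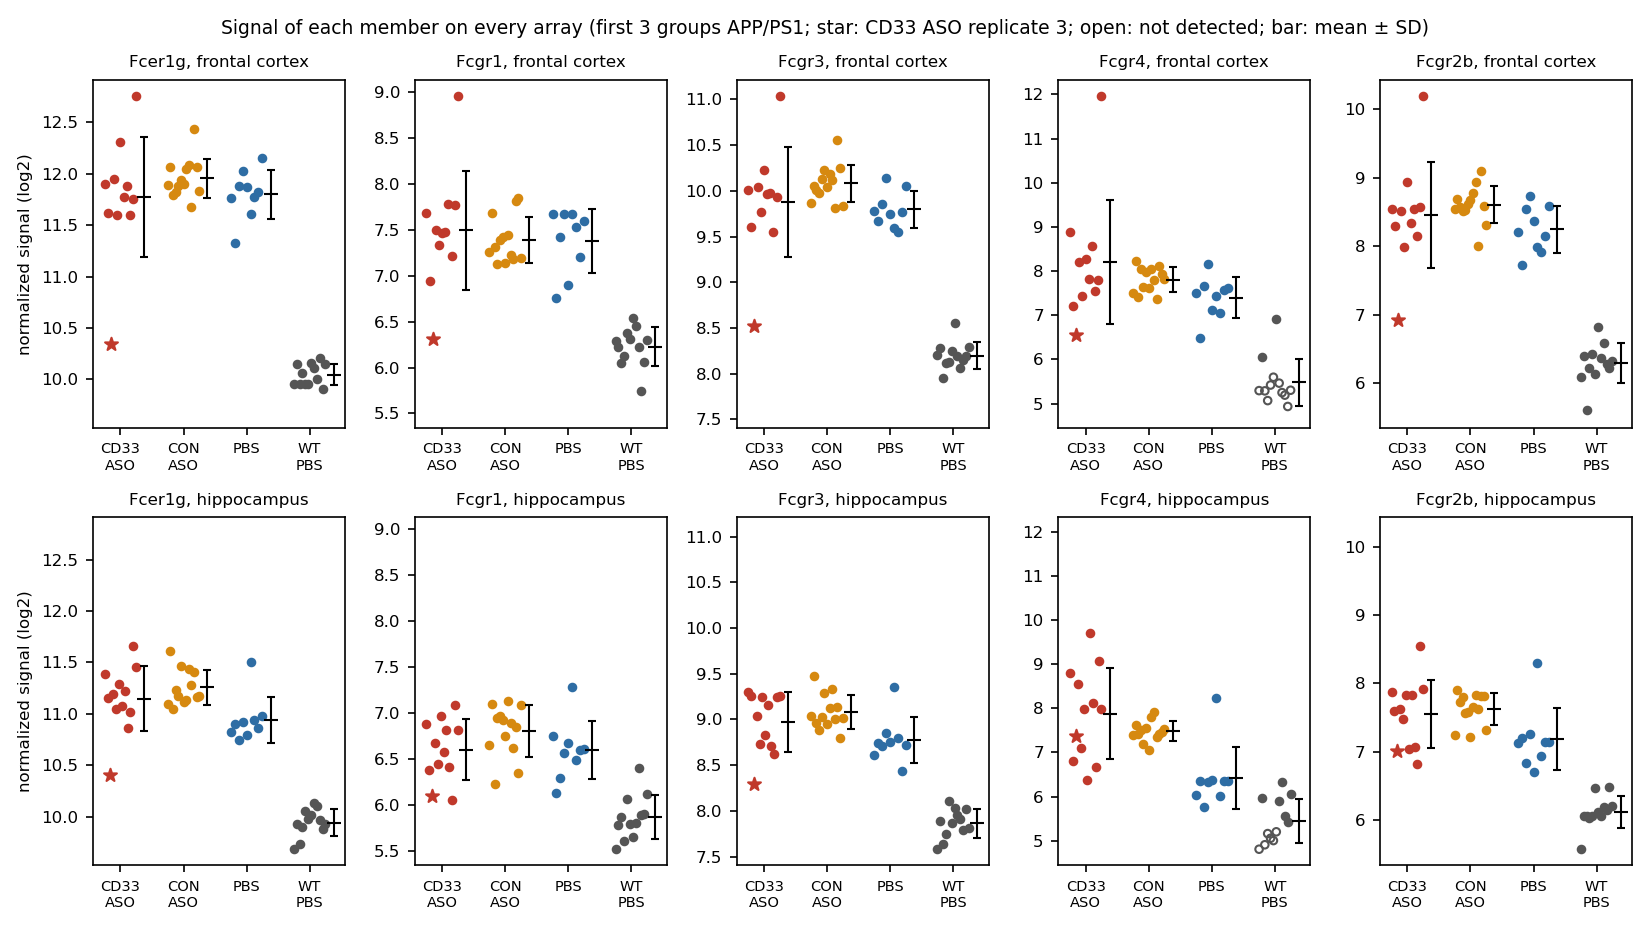
Normalized log2 signal of the 5 members (columns) in frontal cortex (top) and hippocampus (bottom). Each point is an array, in the order APP/PS1 CD33 ASO, APP/PS1 CON ASO, APP/PS1 PBS and WT PBS; the bar is the group's mean ± SD, a star marks CD33 ASO replicate 3, and open circles mark arrays on which the probe was not detected. The WT PBS arrays are the lowest group in every panel, and the Fcgr4 points of CD33 ASO hippocampus spread between 6.38 and 9.70.

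The first comparison asks what the amyloid genotype does to these genes in vehicle-infused mice. In frontal cortex all 5 members were higher in APP/PS1 PBS than in WT PBS mice, by 2.23 to 3.88-fold. Of all 14347 probes tested there, 8.52% were called higher (limma, Benjamini-Hochberg adjusted p under 0.05). In pieces of whole tissue, a difference in the number of cells of a type and one in RNA per cell cannot be told apart.

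Fcer1g, the common chain, ran between 11.33 and 12.16 with a median of 11.82 on the 9 APP/PS1 PBS cortical arrays and between 9.91 and 10.21 with a median of 10.03 on the 12 WT PBS arrays. Every APP/PS1 PBS array lay above every WT PBS array. The change was 1.76 ± 0.14 (log2, SE), 3.38-fold, with an adjusted p of 3.72e-13. Fcgr1, the high-affinity activating receptor, ran between 6.76 and 7.68 (median 7.53) in APP/PS1 PBS cortex and between 5.74 and 6.55 (median 6.26) in WT PBS cortex. These groups did not overlap either, though the highest WT PBS array came close to the lowest APP/PS1 PBS array. Its change was 1.16 ± 0.17, 2.23-fold, with an adjusted p of 7.73e-07. Fcgr3, the low-affinity activating receptor, ran between 9.55 and 10.14 (median 9.76) in APP/PS1 PBS cortex and between 7.95 and 8.55 (median 8.19) in WT PBS cortex. The groups were well apart. Its change was 1.60 ± 0.14, 3.03-fold, with an adjusted p of 5.12e-12.

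Fcgr4, an activating receptor found in mice that also needs the common chain, ran between 6.49 and 8.17 (median 7.50) in APP/PS1 PBS cortex and between 4.93 and 6.92 (median 5.30) in WT PBS cortex. Its probe was detected on 9 of 9 APP/PS1 PBS arrays and on 2 of 12 WT PBS arrays, so most WT PBS values lie at background. The groups overlapped at 1 array of each, and 8 of 9 APP/PS1 PBS arrays exceeded every WT PBS array. Measured against those values, which mostly lie at background, the change was 1.92 ± 0.34 (3.78-fold) with an adjusted p of 5.04e-05, so its size is less certain than that of the other members. Fcgr2b, the inhibitory receptor, ran between 7.72 and 8.73 (median 8.20) in APP/PS1 PBS cortex and between 5.60 and 6.81 (median 6.31) in WT PBS cortex. The groups did not overlap. Its change was 1.96 ± 0.20, 3.88-fold, with an adjusted p of 1.44e-10. A second Fcgr2b probe, detected on 8 of 9 and 1 of 12 arrays, changed by 1.26 (adjusted p 4.38e-06), and the remaining probe was not detected on any cortical array. Without overlap stood 4 of the 5 members, against 2.53% of all probes. All 5 members were higher in APP/PS1 PBS cortex on each of 6 chips and each of 4 collection days, with Fcgr1 at 0.94 to 1.42 by chip and Fcgr4 at 1.24 to 2.49.

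In hippocampus the same genotype comparison called 4 of the 5 members, at 1.66 to 2.08-fold, where 1.82% of 14450 probes were called higher. Fcer1g ran between 10.75 and 11.51 (median 10.91) in APP/PS1 PBS hippocampus and between 9.68 and 10.13 (median 9.95) in WT PBS hippocampus. The groups did not overlap. The change was 1.00 ± 0.094 with an adjusted p of 3.38e-11. Fcgr1 ran between 6.13 and 7.28 (median 6.60) in APP/PS1 PBS hippocampus and between 5.52 and 6.40 (median 5.84) in WT PBS hippocampus. Here 7 of 9 APP/PS1 PBS arrays exceeded every WT PBS array. Its change was 0.73 ± 0.13 with an adjusted p of 7.3e-05. Fcgr3 ran between 8.43 and 9.35 (median 8.75) in APP/PS1 PBS hippocampus and between 7.58 and 8.11 (median 7.88) in WT PBS hippocampus. The groups were apart, and the change was 0.91 ± 0.10 with an adjusted p of 2.37e-09.

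Fcgr2b ran between 6.71 and 8.29 (median 7.14) in APP/PS1 PBS hippocampus and between 5.58 and 6.48 (median 6.09) in WT PBS hippocampus. Again no array of one group lay inside the range of the other, and the change was 1.06 ± 0.15 with an adjusted p of 2.16e-06. Without overlap stood 3 of the 5 members, against 0.74% of all probes. Fcgr4 ran between 5.76 and 8.22 (median 6.34) in APP/PS1 PBS hippocampus and between 4.81 and 6.33 (median 5.32) in WT PBS hippocampus, detected on 9 of 9 and 6 of 12 arrays. Only 5 of 9 APP/PS1 PBS arrays exceeded every WT PBS array. Its change of 0.97 ± 0.29 missed the threshold (adjusted p 0.0631), and without APP/PS1 PBS replicate 6 it was 0.75 with an adjusted p of 0.183. The other 4 calls held without that array, at 0.93 for Fcer1g, 0.65 for Fcgr1, 0.84 for Fcgr3 and 0.92 for Fcgr2b. On each chip and each collection day all 5 members were higher in APP/PS1 PBS than in WT PBS hippocampus.

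Microglial markers moved with the members in both tissues, and some astrocyte markers did so, mainly in cortex. Of 13 microglial markers tested, 12 rose in APP/PS1 PBS cortex with a median change of 1.44, and 10 rose in hippocampus with a median of 0.79. The medians over all probes were -0.034 and -0.00052. The summed signal of the markers lay between 15779 and 22778 in APP/PS1 PBS cortex and between 6525 and 7692 in WT PBS cortex. In hippocampus it lay between 10714 and 16833 in APP/PS1 PBS mice and between 5439 and 7330 in WT PBS mice. Of the astrocyte markers tested, 3 of 5 rose in APP/PS1 PBS cortex and 1 of 5 in hippocampus. Gfap, the filament gene of reactive astrocytes, rose by 2.57 and 1.13, and Aqp4, the water channel, rose by 0.87 in cortex. Of the border macrophage markers, 1 of 6, Ms4a7, rose in cortex (list median 0.21) and 0 of 5 in hippocampus (median -0.034). Elane and Mpo, granule genes of neutrophil precursors, were not detected on any cortical array. Markers of B cells, which also carry Fcgr2b, had 0 calls among 2 tested in cortex and 1 in hippocampus, and those of NK and T cells had 1 among 4, the perforin gene Prf1, in cortex and 0 among 3 in hippocampus. The part of these cells in the members' change was not tested.

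**Figure D2:**
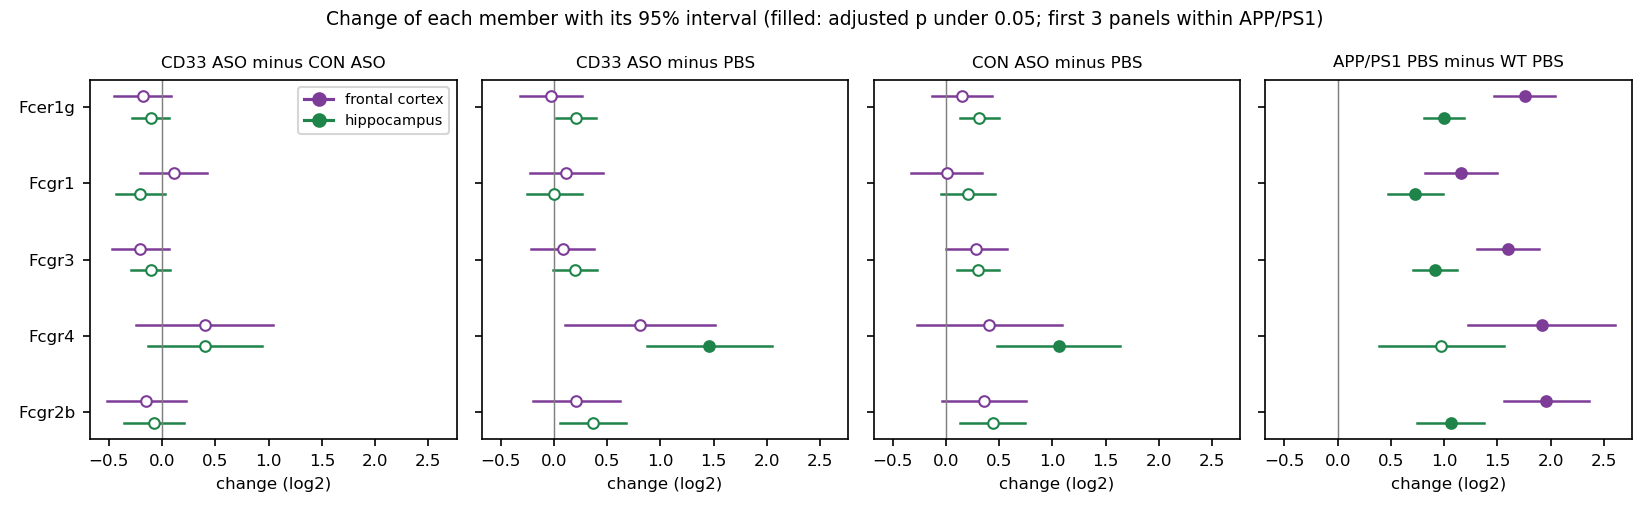
Change of each member (log2) with its 95% interval in 4 comparisons, frontal cortex in purple and hippocampus in green; filled points passed the adjusted p threshold of 0.05. All genotype changes lie right of 0, with those of cortex between 1.16 and 1.96 and those of hippocampus between 0.73 and 1.06. Outside the genotype panel only the 2 hippocampal Fcgr4 comparisons with PBS are filled.

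The genotype change differed between the tissues for 3 of the 5 members in a joint limma fit of all arrays with the mouse as a random block. Hippocampus minus cortex, the change of Fcer1g differed by -0.78 ± 0.15 (adjusted p 0.000655), that of Fcgr3 by -0.72 ± 0.16 (adjusted p 0.00276) and that of Fcgr2b by -0.93 ± 0.23 (adjusted p 0.00928). The second Fcgr2b probe gave -0.88 (adjusted p 0.0167). All 3 were smaller in hippocampus. Of 15229 probes 3.28% differed in either direction, 2.29% towards a lower change in hippocampus. For Fcgr1 (-0.43 ± 0.19, adjusted p 0.235) and Fcgr4 (-0.92 ± 0.41, adjusted p 0.248) the difference missed the threshold. Between hippocampus and cortex of WT PBS mice, 0 of 5 members were called (limma), with differences of -0.15 to 0.15 and unadjusted p of 0.144 to 0.867, where 54.3% of probes were called. Tissue and chip cannot be told apart in that last comparison.

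The activating receptors did not all rise by the same amount as the inhibitory one. Within each array the signal of a member minus that of Fcgr2b was compared between APP/PS1 PBS and WT PBS mice in an exact permutation test over samples (two-sided, 293930 splits), 8 tests in all with Benjamini-Hochberg adjustment. Fcgr1 minus Fcgr2b averaged -0.87 ± 0.38 in APP/PS1 PBS cortex and -0.063 ± 0.27 in WT PBS cortex (SD, n = 9 and 12), a difference of -0.80 (adjusted exact p 0.000245). In hippocampus it averaged -0.59 ± 0.32 in APP/PS1 PBS mice and -0.26 ± 0.26 in WT PBS mice, a difference of -0.33 (adjusted exact p 0.043). With Fcgr2b read from its brightest probe, Fcgr1 thus gained less on a log2 scale in both tissues. The second Fcgr2b probe changed by 1.26 in cortex, beside 1.16 for Fcgr1, and by 0.34 in hippocampus, beside 0.73 for Fcgr1. In cortex that probe was detected on 8 of 9 APP/PS1 PBS and 1 of 12 WT PBS arrays. In hippocampus these were 2 of 9 and 0 of 12. The pair was not tested with that probe, so the result holds for the brightest probe only. Fcgr3 minus Fcgr2b differed by -0.36 in cortex (adjusted exact p 0.00483), which became -0.18 with an adjusted p of 0.0717 in the submitters' value table, and by -0.15 in hippocampus (adjusted p 0.325). Fcer1g minus Fcgr2b (-0.20 and -0.059) and Fcgr4 minus Fcgr2b (-0.040 and -0.088) missed the threshold in cortex and hippocampus, with adjusted exact p of 0.114 to 0.816. Both of these pairs turned above 0 under 1 other treatment of the background or scale. The Fcgr4 pair is no measure of relative change, since its probe was detected on only 2 of 12 cortical and 6 of 12 hippocampal WT PBS arrays.

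The means of all 3 APP/PS1 groups lay above that of WT PBS mice for every member. In cortex Fcer1g averaged 11.77 ± 0.59 in CD33 ASO, 11.96 ± 0.19 in CON ASO, 11.80 ± 0.24 in APP/PS1 PBS and 10.05 ± 0.10 in WT PBS mice (SD; n = 11, 13, 9 and 12). Fcgr1 averaged 7.50 ± 0.65, 7.39 ± 0.25, 7.38 ± 0.35 and 6.23 ± 0.21 in the same order of groups, and Fcgr3 averaged 9.88 ± 0.60, 10.08 ± 0.20, 9.80 ± 0.20 and 8.20 ± 0.15. For each member the cortical means of the APP/PS1 groups differed by less than the SD within CD33 ASO mice. This held with or without the doubted mouse. Fcgr4 averaged 8.21 ± 1.41 in CD33 ASO, 7.81 ± 0.28 in CON ASO, 7.40 ± 0.47 in APP/PS1 PBS and 5.48 ± 0.53 in WT PBS cortex. Fcgr2b averaged 8.46 ± 0.78, 8.61 ± 0.27, 8.25 ± 0.34 and 6.29 ± 0.29 in the same order. The CD33 ASO group had the largest SD of the 4 for each member in cortex. For each member its lowest array was the doubted mouse and its highest was replicate 11. Without the doubted mouse its SDs were 0.37 for Fcer1g, 0.54 for Fcgr1, 0.42 for Fcgr3, 1.37 for Fcgr4 and 0.62 for Fcgr2b. These were still the largest of the 4. SDs without both arrays were not computed.

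In hippocampus Fcer1g averaged 11.15 ± 0.32 in CD33 ASO, 11.26 ± 0.17 in CON ASO, 10.94 ± 0.22 in APP/PS1 PBS and 9.94 ± 0.13 in WT PBS mice (SD; n = 12, 13, 9 and 12). Fcgr1 averaged 6.60 ± 0.33, 6.81 ± 0.28, 6.60 ± 0.32 and 5.87 ± 0.24 in that order, and Fcgr3 averaged 8.97 ± 0.33, 9.08 ± 0.19, 8.78 ± 0.25 and 7.86 ± 0.16. Fcgr2b averaged 7.55 ± 0.50 in CD33 ASO, 7.63 ± 0.23 in CON ASO, 7.18 ± 0.45 in APP/PS1 PBS and 6.12 ± 0.23 in WT PBS hippocampus. For these 4 members the CON ASO mean was the highest and the WT PBS mean the lowest. Fcgr4 averaged 7.88 ± 1.04, 7.48 ± 0.23, 6.42 ± 0.71 and 5.45 ± 0.51 in the same order, so that here the CD33 ASO mean was the highest. Fcgr4 was the member whose APP/PS1 groups were spread widest, with the PBS mean about midway between those of CON ASO and WT PBS.

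Knockdown of Cd33 was compared with the non-targeting ASO, the comparison the study was built on. None of the 5 members was called in either tissue (limma), where 0.153% of cortical and 0.118% of hippocampal probes were. At an unadjusted p under 0.05 stood 1405 and 618 probes, and none of the 5 members. In cortex Fcer1g ran between 10.35 and 12.76 (median 11.77) in CD33 ASO mice and between 11.68 and 12.44 (median 11.90) in CON ASO mice. The CD33 ASO group covered the whole CON ASO range, its lowest array being the mouse of doubtful genotype and its highest replicate 11. The difference was -0.18 with a 95% interval of -0.45 to 0.084. The intervals of the others were -0.21 to 0.42 for Fcgr1, -0.47 to 0.064 for Fcgr3 and -0.52 to 0.22 for Fcgr2b. In hippocampus they were -0.28 to 0.062 for Fcer1g, -0.44 to 0.026 for Fcgr1, -0.29 to 0.077 for Fcgr3 and -0.36 to 0.21 for Fcgr2b. Without the mouse of doubtful genotype the cortical differences were -0.040 for Fcer1g, 0.23 for Fcgr1, -0.070 for Fcgr3, 0.56 for Fcgr4 and 0.0032 for Fcgr2b, with none called. Without it the hippocampal differences were -0.042 for Fcer1g, -0.16 for Fcgr1, -0.046 for Fcgr3, 0.45 for Fcgr4 and -0.025 for Fcgr2b, again with none called.

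Fcgr4 was the member with the widest spread in CD33 ASO mice. In cortex it ran between 6.55 and 11.97 (median 7.82) in CD33 ASO mice and between 7.37 and 8.22 (median 7.81) in CON ASO mice. The medians were nearly equal and the ranges overlapped. The difference was 0.40 ± 0.32 (adjusted p 0.695), and 0.023 without replicate 11. It was above 0 on 5 of 6 chips (-0.35 to 2.01) and on 3 of 4 days (-0.39 to 2.74). In hippocampus it ran between 6.38 and 9.70 (median 7.99) in CD33 ASO mice and between 7.05 and 7.91 (median 7.47) in CON ASO mice. Of 12 CD33 ASO arrays, 7 lay above every CON ASO array and 3 lay below every one, with SDs of 1.04 in CD33 ASO and 0.23 in CON ASO hippocampus. The difference was 0.40 ± 0.27, with a 95% interval of -0.13 to 0.93 and an adjusted p of 0.99. It was above 0 on all 6 chips (0.18 to 0.56) and all 4 days (0.21 to 1.44), where the smaller group of a chip or day can be 1 array. The lowest hippocampal CD33 ASO arrays for Fcgr4, replicates 7 and 10 at 6.38 and 6.67, also had the highest Cd33 signals of the group, 6.38 and 6.21, and neither mouse has a cortical array. Elsewhere the array highest for Fcgr4 was also highest for Cd33. This was so for CD33 ASO cortex replicate 11 (Cd33 7.10, others 5.05 to 6.88). It was so too for APP/PS1 PBS hippocampus replicate 6 (6.97, others at most 6.65). The relation of Fcgr4 to Cd33 was not tested. Among mice measured in both tissues the hippocampal difference between CD33 ASO and CON ASO was 0.67 ± 0.25 (adjusted p 0.813).

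Both ASO groups were then set against the same APP/PS1 PBS mice, so these comparisons share their controls. Fcgr4 in hippocampus was the 1 member called in each. On the 9 APP/PS1 PBS arrays it ran between 5.76 and 8.22 with a median of 6.34, beside medians of 7.99 in CD33 ASO and 7.47 in CON ASO hippocampus. Apart from replicate 6, every APP/PS1 PBS array lay below every CON ASO array. CON ASO exceeded PBS by 1.06 ± 0.29, 2.08-fold (adjusted p 0.0487; 0.824% of probes were called higher). CD33 ASO exceeded PBS by 1.46 ± 0.29, 2.75-fold (adjusted p 0.0141; 0.18% were called higher). By chip the excess over PBS was 0.24 to 2.02 for CD33 ASO and 0.064 to 1.57 for CON ASO, and by day 0.70 to 2.82 and 0.21 to 1.51, above 0 on each.

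The CON ASO call lay close to the threshold. It was lost with the chip as a block (adjusted p 0.0677), with the day as a block (0.0542) and without the doubted mouse (0.0512). Each of the 13 CON ASO and 9 PBS arrays was also left out in turn. The call was lost in 20 of these fits (adjusted p up to 0.113), so it rarely held. The CD33 ASO call was lost when its groups were fitted alone (1.46, adjusted p 0.189). APP/PS1 PBS replicate 6 was left out because its member signals were seen to be the highest of its group, which by construction lowers the PBS means and spread. Values without it are therefore a description, not a test. Without it and the doubted mouse, 4 of 5 members were called for CON ASO over PBS (1.2% of all probes were then called higher), with Fcer1g at 0.39 (adjusted p 0.000917), Fcgr3 at 0.37 (0.0096), Fcgr2b at 0.58 (0.0116) and Fcgr4 at 1.28 (0.00503). With it these changes were 0.32, 0.30, 0.44 and 1.06, and Fcgr1 stood at 0.21 (adjusted p 0.499). For CD33 ASO over PBS, 3 of 5 were then called (0.533% of all probes higher), with Fcer1g at 0.34 (0.0169), Fcgr2b at 0.55 (0.0377) and Fcgr4 at 1.73 (0.00064).

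In cortex 0 of 5 members were called for CON ASO over PBS (2.63% of probes) or for CD33 ASO over PBS (1.36%), both by limma, with 2169 and 1768 probes at an unadjusted p under 0.05. Fcgr4 stood at 0.41 (95% interval -0.27 to 1.09) for CON ASO and at 0.81 (0.10 to 1.51; adjusted p 0.311) for CD33 ASO. Without replicate 11 the second value was 0.43. Without the doubted mouse and replicate 11, Fcgr3 passed for CON ASO over PBS at 0.29 (adjusted p 0.033; 1.45% of all probes were then called higher), the same change as with them (adjusted p 0.331). Neither array belongs to those groups, and replicate 11 was likewise left out for its member signals, so only the spread estimated over all groups differs. The difference between hippocampus and cortex in the Fcgr4 change was 0.63 ± 0.41 for CON ASO over PBS (adjusted p 0.61), so the call in 1 tissue does not show that the tissues differ. None of the 5 members had a change that differed between tissues at the threshold for CON ASO over PBS (0.0722% of probes) or for CD33 ASO over CON ASO (0%), with unadjusted p of 0.109 to 0.953.

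Markers of border macrophages and of oligodendrocytes moved in the ASO comparisons. In hippocampus Fcna rose by 1.87, Ms4a7 by 1.52, Cbr2 by 0.89 and Folr2 by 0.58 in CON ASO over PBS, 4 of 5 markers tested. In CD33 ASO against CON ASO hippocampus Fcna fell by 1.33, Ms4a7 by 1.02 and Cbr2 by 0.66. In cortex, where Fcgr4 was not called, Fcna rose by 1.37, Ms4a7 by 1.14 and Cbr2 by 0.50 in CON ASO over PBS, 3 of 6 tested. Fcna fell by 0.87 in CD33 ASO against CON ASO cortex, and Ms4a7 rose by 0.75 in CD33 ASO over PBS cortex. The summed hippocampal signal of this list was 158 to 346 in CD33 ASO, 355 to 737 in CON ASO and 107 to 384 in PBS hippocampus, with Cd163 not detected on any array. Of 5 oligodendrocyte markers, the myelin gene Mag fell by 0.39 in CON ASO over PBS hippocampus, and Mog fell by 0.62 and Mobp by 0.46 in CD33 ASO over PBS hippocampus. In cortex 3 of 5 fell in CON ASO over PBS, by 0.17 (Mbp) to 0.41 (Cnp), and 2 of 5 in CD33 ASO over PBS, Mog by 0.52 and Mag by 0.34. Microglial markers had 0 of 13 calls in each ASO comparison of either tissue. Lcn2 rose by 1.01 in CON ASO over PBS hippocampus, while S100a9, Ngp and Ltf were not detected there. Choroid plexus markers shifted in hippocampus with a median of 1.43 in CON ASO over PBS and 0.72 in CD33 ASO over PBS, with 0 of 7 called in either and summed signals of 4036 to 37460 in CD33 ASO, 6756 to 36628 in CON ASO and 2206 to 31854 in PBS hippocampus. The part of these cells in the Fcgr4 change was not tested.

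Genes that act downstream of the receptors were counted from lists, in APP/PS1 PBS against WT PBS mice. Of the activating signalling genes 6 of 9 tested rose in cortex, with a list median of 1.00, and 4 of 9 in hippocampus, with a median of 0.27. The adaptor Lat2 rose by 1.56 in cortex and 1.11 in hippocampus, the exchange factor Vav1 by 1.35 and 0.79, and the phospholipase Plcg2 by 1.10 and 0.46. Of the inhibitory signalling genes 3 of 9 rose in cortex (median 0.094) and 2 of 8 in hippocampus (median -0.0082). Those in both were Ptpn6, the phosphatase SHP-1, at 1.79 and 1.11, and Inpp5d, the phosphatase SHIP-1 that Fcgr2b recruits, at 0.93 and 0.79. Lilrb4a, the other cortical one, was detected on only 1 APP/PS1 PBS array and on 0 WT PBS arrays.

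Effectors of phagocytosis and the oxidase rose in 8 of 12 cases in cortex (median 0.79) and in 6 of 11 in hippocampus (median 0.44). The myosin Myo1f rose by 1.99 and 1.29, the oxidase subunit Cyba by 1.52 and 0.73, and the Arp2/3 subunit Arpc1b by 1.06 and 0.46. Elmo1, a partner of Dock proteins, fell by 0.13 in cortex. Of other ITAM adaptors and Fcer1g partners 4 of 10 rose in cortex and 4 of 9 in hippocampus. They were Tyrobp, the adaptor of Trem2, at 2.52 and 1.70, the beta-glucan receptor Clec7a at 2.21 and 1.26, the lectin Siglech at 1.55 and 0.82, and the adaptor Hcst at 0.95 and 0.53. Tyrobp thus changed by more than each of the 5 members in either tissue, without a test of that difference. Of the remaining Fc receptors 3 of 4 rose in cortex, with Fcrls, an Fc receptor-like gene of mouse microglia, at 1.67, the cytosolic antibody receptor Trim21 at 0.57 and the neonatal receptor Fcgrt at 0.29. Fcrls alone rose in hippocampus, at 1.12.

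Interferon gamma and myeloid transcription factor genes rose in 9 of 14 cases in cortex (median 0.57) and in 3 of 14 in hippocampus (median 0.26). Spi1, which encodes PU.1, rose by 0.66 in cortex, where it was detected on 7 of 9 APP/PS1 PBS and 1 of 12 WT PBS arrays, and stood at 0.15 in hippocampus (adjusted p 0.507). Irf8 rose by 1.54 and 0.92 and Irf5 by 1.42 and 0.71. Immunoglobulin genes were not tested here. In CD33 ASO against CON ASO mice 0 genes of these 6 lists were called in either tissue. Against PBS, Cyba rose by 0.41 in CON ASO hippocampus (adjusted p 0.0463), and Dok3, an adaptor that restrains ITAM signals, by 0.39 and the kinase gene Jak2 by 0.21 in CD33 ASO cortex.

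**Figure D3:**
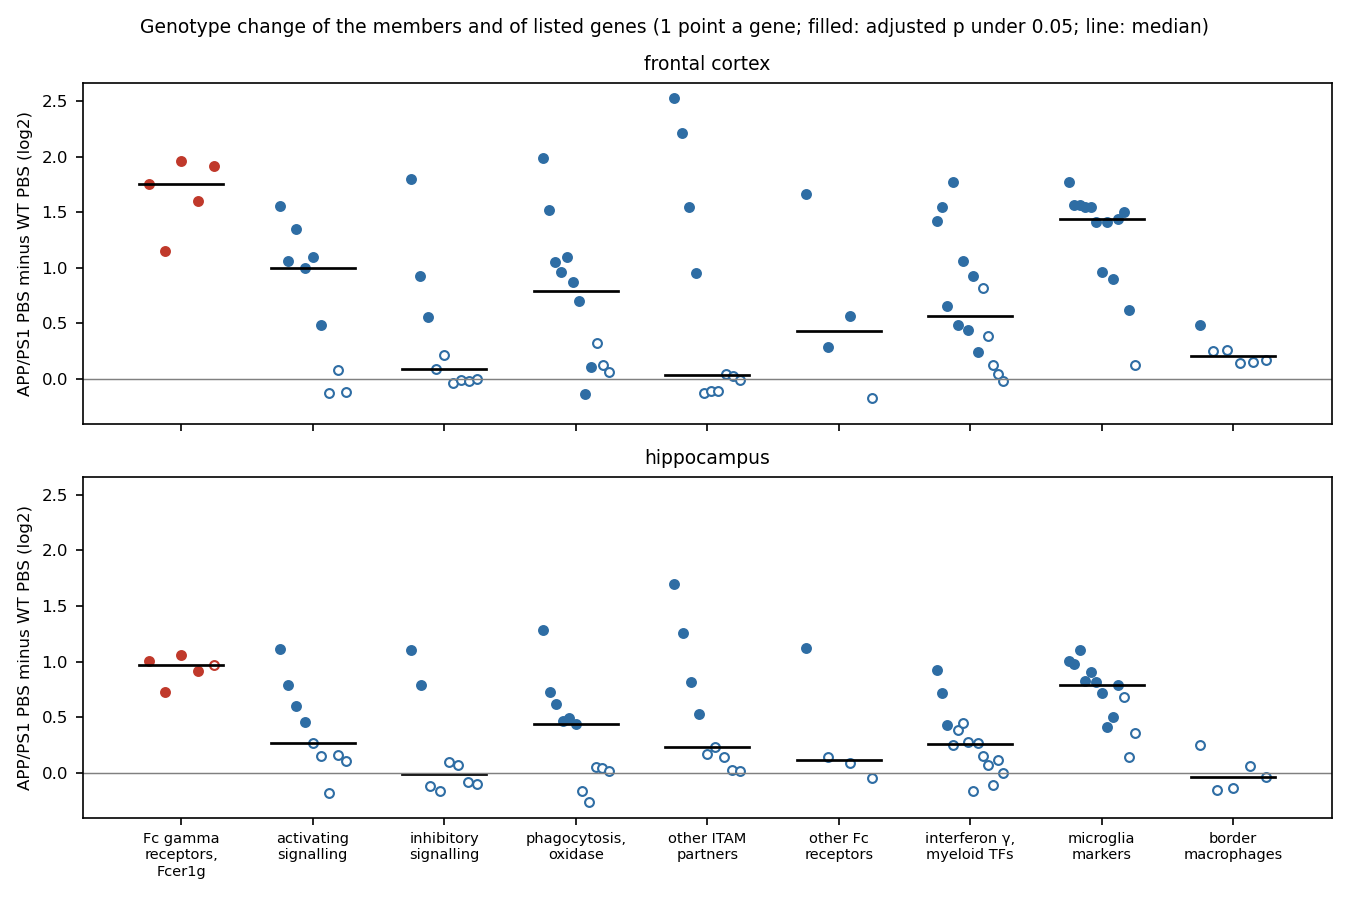
Genotype change (log2, APP/PS1 PBS minus WT PBS) of the 5 members and of the genes on 8 lists, 1 point a gene; filled points passed the adjusted p threshold and a line marks the median of the list. The members' points lie between 1.16 and 1.96 in cortex (top) and 0.73 and 1.06 in hippocampus (bottom), near the microglial markers, whose medians are 1.44 and 0.79.

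After group means were removed, members still varied together between mice of a group. Without the doubted mouse, Pearson r between pairs of members was 0.677 to 0.88 over 44 cortical arrays and 0.532 to 0.816 over 45 hippocampal arrays. Spearman rho was 0.461 to 0.788 and 0.483 to 0.786. All 20 pairs passed a permutation test (adjusted p at most 0.00183 for r and 0.00313 for rho). The share of all gene pairs that would pass was not computed. Leaving out the 2 arrays farthest from the median lowered r to 0.442 to 0.777 in cortex and 0.39 to 0.782 in hippocampus. With day means also removed r was 0.514 to 0.88, and with chip means removed 0.561 to 0.873. These arrays share their tissue dissection and their microglial content, which was not separated from the members. The closest genes outside the family reached higher r than any pair of members. C1qa stood at 0.898 with Fcgr3 in cortex and C1qc at 0.882 with Fcer1g in hippocampus.

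Over the 43 mice with both tissues, the deviation in cortex went with that in hippocampus for Fcgr3 (r = 0.503, rho = 0.436, adjusted permutation p 0.00375 and 0.0238). For Fcer1g r was 0.452 (adjusted permutation p 0.0134) and for Fcgr1 0.425 (0.0134). For Fcgr2b r was 0.347 (0.0399) and rho 0.299 (0.0762). For Fcgr4 r was 0.308 and missed the threshold (adjusted permutation p 0.0889). Without the 2 mice farthest from the cortical median r was 0.34 for Fcer1g, 0.363 for Fcgr1, 0.556 for Fcgr3, 0.456 for Fcgr4 and 0.344 for Fcgr2b. With day means removed it was 0.453, 0.354, 0.496, 0.252 and 0.274 in the same order of genes. Of the 5 tested over all 43 mice, Fcgr4 had the lowest r, without a test of the difference.

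**Figure D4:**
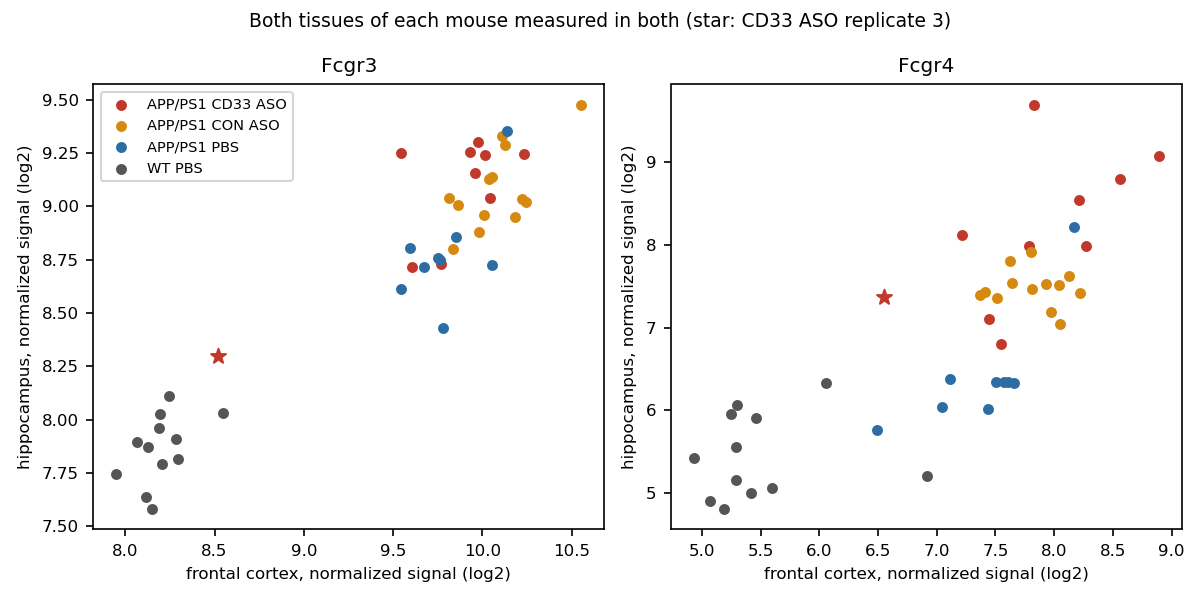
Normalized log2 signal of Fcgr3 (left) and Fcgr4 (right) in frontal cortex (x axis) and hippocampus (y axis) of each mouse measured in both; colours give the group and a star marks CD33 ASO replicate 3. WT PBS mice form the low group in both panels; for Fcgr4 the APP/PS1 PBS mice other than replicate 6 lie between 5.76 and 6.38 in hippocampus, below the CON ASO mice.

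The genes most like each member were ranked by Pearson r over the same arrays, among genes whose mean signal was above that of the member minus 2 (3576 to 10037 genes). For Fcer1g they began with the complement gene C1qc in both tissues (0.879 in cortex, 0.882 in hippocampus), and for Fcgr3 with C1qa in cortex (0.898) and C1qc in hippocampus (0.808). Fcgr2b was most like Cd52, a surface glycoprotein of leukocytes, in cortex (0.856) and C1qc in hippocampus (0.859). Fcgr1 was most like Fgd2 in cortex (0.845), followed by Ptpn6 (0.841), and most like Ptpn6 in hippocampus (0.803). By rank another gene came first for Fcer1g (Rnaset2b, 0.824) and Fcgr1 (Rasal3, 0.746) in cortex. For Fcgr2b these were Lpxn in cortex (0.779) and Acer3 in hippocampus (0.77). The first gene stayed the same for Fcgr3 in both tissues, and for Fcer1g and Fcgr1 in hippocampus. By Pearson r, Fcgr4 stood nearest to interferon-induced genes in cortex, Igtp (0.921), Gbp2 (0.908) and the immunoproteasome gene Psmb9 (0.906). Replicate 11, which was highest for Fcgr4, Igtp and Gbp2, enters these values, and their rank correlations were 0.728, 0.666 and 0.636. By rank C1qa came first for Fcgr4 in cortex (0.779). In hippocampus Fcgr4 was most like Ifitm3, an interferon-induced membrane gene, by both measures (r = 0.795, rho = 0.805).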

How the data were processed

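Per the labels, RNA was biotin-labelled and hybridised to Illumina arrays. The deposited table holds, per the file headers, an intensity and a detection p-value for 25697 probes on each array; 25.1% of intensities were negative, which shows background subtraction before the deposit. BeadStudio, GenomeStudio and Partek appear, with no version, among the tools in the submitters' processing notes. The submitters' deposited table of processed values (17885 probes) served as an alternative. Its log2 values, as deposited, had column medians of 7.43 in cortex and 7.23 in hippocampus, followed the order of the intensities, and their offset is unknown. Array annotation named 16814 probes.

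Intensities were normalized per tissue with neqc of limma 3.58.1 (R 4.3.3; offset 16). Probes with detection p under 0.05 on at least 9 arrays were kept. All probes of the members, Cd33 and Thy1 were kept in any case. Of the member probes, only the dimmest Fcgr2b probe did not pass the filter. One limma model over the 4 groups used moderated variances (trend, robust) and Benjamini-Hochberg adjustment over all probes at 0.05; p-values are two-sided. Tissues were compared in a joint fit of 15229 probes (mouse as random block, correlation 0.165, statmod 1.5.0). Each gene was read from the brightest probe. Fits were tested on simulated data. Other background, scaling, filter, weight, block and left-out-array settings were tried. Same-numbered replicates correlated at -0.424 to 0.525 and were not treated as pairs.

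Members, gene lists and the rule for named genes (all members, called list genes, and the 3 genes most like each member) were chosen with earlier results of these data known. The number of arrays limits precision. Group sizes follow the sample titles, since the treatment text differs from them by 1 PBS mouse in each genotype.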

Additional observations from a re-analysis of the deposited data

Results flagged for a closer look

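In APP/PS1 PBS hippocampus 1 array, replicate 6, lay far above the other 8 for 4 of the 5 members. Its signal was 11.51 for Fcer1g (next highest 10.98), 9.35 for Fcgr3 (8.86), 8.22 for Fcgr4 (6.38) and 8.29 for Fcgr2b (7.26). Only the APP/PS1 PBS groups of cortex and hippocampus were small enough to test, which gave 10 tests, 1 for each member and group. Such an array was found in 4 of the 10, all 4 this one. Chance marks about 1 in 20 of independent tests, and these tests are not independent. The members share cells and array, so these are not 4 separate findings. The cause was not tested.

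The genotype change, APP/PS1 PBS minus WT PBS, differed between hippocampus and cortex by -0.78 for Fcer1g, -0.93 for Fcgr2b and -0.72 for Fcgr3, each smaller in hippocampus by the joint limma test. The microglial markers were also smaller there, with medians of 0.79 in hippocampus and 1.44 in cortex, and their part was not tested.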

How the results depend on the processing

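Of 888 values recomputed under other settings (single left-out arrays aside), 805 kept their direction and side of the threshold, or moved little, and all called genotype changes of the members were among them. The number of arrays and, for Fcgr4 in WT PBS mice, signal near background limit the rest. The causes were not tested.

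Counts of called probes moved most. CD33 ASO over CON ASO cortex had 22, and 42 with array weights, 43 with the chip as a block, 112 with the replicate block, 14 with plain moderation and 1 with its groups alone. CON ASO over PBS cortex had 377, and 226 without a filter, 752 with weights and 1021 with the replicate block. CD33 ASO over PBS cortex had 195, and 129 by median centring, 90 with its groups alone and 128 without the doubted mouse and the apart-standing array (chosen after seeing the data). In hippocampus the genotype had 360, and 691 by chip. CD33 ASO over CON ASO had 17, and 11 by a stricter filter or with its groups alone. CON ASO over PBS had 187, and 477 with weights, 323 by chip and 413 with the replicate block. CD33 ASO over PBS had 73, and 14 by median centring, 28 without a filter, 112 with weights, 183 by chip, 7 with its groups alone, 253 in mice with both tissues and 127 without the doubted mouse and apart-standing array. Tissue differences without the mouse block numbered 240 for genotype (499 with it) and 0 for CON ASO over PBS (11 with it). By median centring the called probes split into 21 higher and 4 lower (10 and 12 before) for CD33 ASO over CON ASO cortex, 69 and 306 (165 and 212) for CON ASO over PBS cortex, 104 and 24 (119 and 68) for CON ASO over PBS hippocampus, and 7 and 7 (26 and 47) for CD33 ASO over PBS hippocampus. No member's called direction changed.

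Members called for CON ASO over PBS hippocampus numbered 1, but 0 without further background correction (Fcgr4 1.06, adjusted p 0.0626), by median centring (1.09, 0.057), in the value table (0.92, 0.0679), without a filter (1.06, 0.0924), by chip (1.02) and by day (1.06), and 2 with weights, the replicate block or its groups alone. Fcer1g was the second, at 0.33, 0.31 and 0.32, and passed without the doubted mouse too (0.32), where Fcgr4 missed at 1.06. Without the doubted mouse and the apart-standing array the members called numbered 4 there (Fcer1g 0.39, Fcgr3 0.37, Fcgr2b 0.58), 3 for CD33 ASO over PBS (Fcer1g 0.34, Fcgr2b 0.55) and, in cortex, 1 for CON ASO over PBS (Fcgr3 0.29). CD33 ASO over PBS hippocampus had 0 with its groups alone (Fcgr4 1.46). Fcgr4 passed for genotype in hippocampus without further background correction (1.07), with its groups alone (0.97) and in mice with both tissues (0.97).

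Changes that turned direction were not called on either side. For Fcgr1, CON ASO over PBS cortex was 0.0072, and -0.024 by median centring, -0.013 with weights, -0.040 by chip and -0.046 with the replicate block; CD33 ASO over CON ASO cortex became -0.033 with the replicate block and -0.039 in mice with both tissues; CD33 ASO over PBS became -0.079 and -0.032 in cortex, and -0.0050 by chip and -0.016 with the replicate block in hippocampus. Fcer1g in CD33 ASO over PBS cortex became 0.0028 by day, 0.11 without the doubted mouse and 0.020 without the apart-standing array as well. Fcgr3 there became -0.055 with the replicate block and -0.037 in mice with both tissues. Fcgr2b in CD33 ASO over CON ASO became 0.0032 in cortex without the doubted mouse and 0.050 in hippocampus of mice with both tissues. The Fcgr4 tissue difference for CD33 ASO over CON ASO became -0.011 without the mouse block. Without further background correction Fcgr4 minus Fcgr2b became 0.078 in cortex and 0.012 in hippocampus. In the value table Fcer1g minus Fcgr2b became 0.020 and 0.078. Fcgr3 minus Fcgr2b in cortex kept its direction there, at -0.18, but lost its call (adjusted exact permutation p 0.0717, and 0.00483 before).

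Leaving out 1 array at a time gave 11 to 58 and 10 to 17 probes for CD33 ASO over CON ASO in cortex and hippocampus, 115 to 248 and 17 to 152 for CD33 ASO over PBS, 223 to 586 and 108 to 237 for CON ASO over PBS, and 237 to 474 for genotype in hippocampus. Members called for CON ASO over PBS hippocampus ranged over 0 to 4, with Fcgr4 at 0.98 to 1.28, Fcer1g at 0.29 to 0.39, Fcgr3 at 0.26 to 0.37 and Fcgr2b at 0.38 to 0.58. Fcgr4 for genotype in hippocampus ranged over 0.75 to 1.05. For Fcgr1 the ranges were -0.039 to 0.23 (CD33 ASO over CON ASO cortex), -0.032 to 0.23 and -0.057 to 0.088 (CD33 ASO over PBS cortex and hippocampus) and -0.070 to 0.044 (CON ASO over PBS cortex). In cortex Fcer1g ranged over -0.13 to 0.11 and Fcgr3 over -0.037 to 0.22 for CD33 ASO over PBS, and Fcgr2b over -0.32 to 0.0032 for CD33 ASO over CON ASO.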
